A study of Mus musculus with 35 samples.

Results

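The 9 genes Cebpa, Cebpb, Cebpd, Cebpe, Spi1, Irf8, Gfi1, Runx1 and Klf4, which encode transcription factors of the myeloid lineage, were followed through leukemia cells of 3 mouse models before and after their fusion oncogene was switched off. They are 9 of the 24462 features in the table of normalized counts and were found there by Entrez identifier. The set was named by gene symbol, with earlier results of these data known. All 9 had enough reads to be tested, as did 12687 features in all. RNA came from bone marrow cells sorted for GFP and CD45.2 from transplanted C57BL/6 mice. In the models a regulatable NUP98-DDX10, NUP98-JARID1A or NUP98-NSD1 gene joins the nucleoporin gene NUP98 to a second gene, and doxycycline, given at 4 mg/ml, turns the fusion down. Each fusion had 4 untreated libraries, 3 from day 3 of doxycycline and 3 from day 5, and 3 untreated control libraries completed the 33.

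Of the 4 untreated libraries of a fusion, 1 is titled for day 3 (called replicate 1 here) and 3 are titled for day 5. The genotype labels of the controls name all 3 fusions, the last written with DDX40, DDX41 or DDX42 in place of DDX10, so what those mice carried is not known from the labels. Neither the driver of the fusion nor the age of the mice is given, and the labels number libraries without naming animals or leukemias. The p-values therefore measure the spread between these samples, which may be technical.

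Myeloid transcription factors act in sequence and in opposition. PU.1, the product of Spi1, and RUNX1 open the myeloid program in early progenitors, C/EBP alpha commits them to the granulocyte and monocyte line, and C/EBP epsilon and GFI1 then drive granulocytes while IRF8 and KLF4 drive monocytes. NUP98 fusions are known to hold leukemia cells in a progenitor-like state.

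A library held between 12043487 and 28903870 reads in genes, and the deepest was NUP98-JARID1A day 5 replicate 1. The sorted cells carried myeloid RNA: the 8 myeloid markers, such as Mpo, Lyz2 and Itgam, summed to between 131367 and 368936 normalized counts in the fusion libraries. In the fusion libraries the 6 B cell markers summed to between 999 and 2183 normalized counts, the 6 T and NK cell markers to at most 46.8 and the 6 erythroid markers to at most 62.8. The 4 basophil and mast cell markers summed to 5340 to 13246 in the controls and to at most 539 in any fusion library. In NUP98-JARID1A they were lower after doxycycline, at 263 to 539 untreated, 68.7 to 131 at day 3 and 23.4 to 44.2 at day 5, and so were the 4 eosinophil markers (766 to 1439.6, 370.3 to 403 and 326 to 331). Prss34 of the first list was at 0 untreated and at day 3, and Il5ra of the second at day 5. The basophil and mast cell sums were also lower at day 5 in NUP98-DDX10 (142 to 163 untreated, then 77.1 to 93.6) and NUP98-NSD1 (81.3 to 99.5, then 16.7 to 56.0). So were the eosinophil sums in NUP98-DDX10 (321 to 401, then 229 to 269) and NUP98-NSD1 (241 to 379, then 76.7 to 109). In NUP98-DDX10 Prg2, Epx and Il5ra were at 0 in all day 5 libraries, so that sum came from a single marker. Il5ra was also at 0 in untreated NUP98-DDX10 and at day 5 in NUP98-NSD1. Prss34 was at 0 untreated and at day 5 in NUP98-DDX10, and at day 5 in NUP98-NSD1. The part of these markers in the changes of the members was not tested. Control replicate 3 stood apart. Its B cell markers summed to 85388 (16148 and 18103 in control replicates 1 and 2), its erythroid markers to 8131 (1392 and 2050) and its myeloid markers to 81598 (289474 and 278434). Each call against the controls is therefore given also without replicate 3. NUP98-JARID1A day 5 replicate 1 also stood apart. Its reads differed from those of the other 2 libraries with a chi-square per degree of freedom of 92.6 and 171, against 20.8 between those 2, and it had the lowest value of its group for all 9 genes. Without it the day 5 calls against untreated NUP98-JARID1A stayed past the threshold: Cebpa had 1.32 (limma adjusted p = 0.000652), Cebpb 1.45 (0.000259), Spi1 1.18 (0.000247), Irf8 0.61 (0.00383), Gfi1 -1.14 (0.0117) and Klf4 3.39. In bulk RNA, fewer cells of a type and less RNA per cell cannot be told apart.

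Promoter sequence from RefSeq (GRCm38.p6) was matched for 6 of the 9 members: Cebpa, Cebpb, Irf8, Klf4, Gfi1 and Runx1. The 250 bases before the first RefSeq start are shown, 5′ to 3′ on the gene's strand. They are given for the 4 members that rose together by day 3 in NUP98-JARID1A, and for Gfi1. Gfi1 fell by day 5 in NUP98-JARID1A, where its day 3 change did not pass, and by day 3 and day 5 in NUP98-NSD1. Capitals mark matches, on either strand, to motif letters known for factor families of the set or its inputs.
Cebpa (chr7:35119043-35119292, plus strand): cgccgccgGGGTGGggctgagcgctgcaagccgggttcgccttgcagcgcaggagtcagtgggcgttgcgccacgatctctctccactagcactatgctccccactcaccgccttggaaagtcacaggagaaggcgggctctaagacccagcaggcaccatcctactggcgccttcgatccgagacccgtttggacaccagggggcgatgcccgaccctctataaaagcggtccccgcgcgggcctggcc
Cebpb (chr2:167688665-167688914, plus strand): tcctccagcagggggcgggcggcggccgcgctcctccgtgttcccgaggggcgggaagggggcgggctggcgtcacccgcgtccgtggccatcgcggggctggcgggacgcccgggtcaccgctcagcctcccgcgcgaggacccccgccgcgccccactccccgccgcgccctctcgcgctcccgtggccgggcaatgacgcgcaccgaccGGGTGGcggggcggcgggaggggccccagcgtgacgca
Irf8 (chr8:120736108-120736357, plus strand): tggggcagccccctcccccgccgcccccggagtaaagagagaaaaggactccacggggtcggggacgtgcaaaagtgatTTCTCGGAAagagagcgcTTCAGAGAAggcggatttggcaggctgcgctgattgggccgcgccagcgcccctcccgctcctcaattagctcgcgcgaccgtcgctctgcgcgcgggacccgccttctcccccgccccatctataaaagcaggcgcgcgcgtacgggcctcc
Klf4 (chr4:55532476-55532725, minus strand): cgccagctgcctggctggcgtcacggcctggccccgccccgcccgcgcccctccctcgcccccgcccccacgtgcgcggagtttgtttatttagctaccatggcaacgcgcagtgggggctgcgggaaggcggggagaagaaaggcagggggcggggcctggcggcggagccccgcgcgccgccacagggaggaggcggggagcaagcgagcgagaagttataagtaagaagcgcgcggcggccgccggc
Gfi1 (chr5:107725806-107726055, minus strand): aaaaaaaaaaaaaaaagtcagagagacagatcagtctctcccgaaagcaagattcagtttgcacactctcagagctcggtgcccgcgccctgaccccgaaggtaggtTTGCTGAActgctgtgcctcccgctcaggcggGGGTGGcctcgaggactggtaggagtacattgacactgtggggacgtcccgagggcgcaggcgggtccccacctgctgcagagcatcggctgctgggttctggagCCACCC
The KLF letters CCACCC, found in 28.1% of all 32851 promoters of the table, occur at positions -242 to -237 of Cebpa, at -38 to -33 of Cebpb, and at -111 to -106 and -6 to -1 of Gfi1, counted from the base before the start. The C/EBP letters TTGCNNAA (9.56% of promoters) occur in Gfi1 at -143 to -136. Irf8 holds 2 matches to the STAT letters TTCNNNGAA (7.02% of promoters), at -171 to -163 and -153 to -145. Among the windows shown, the PU.1 letters GAGGAA (23.3%) and the RUNX letters TGTGGT (14.0%) were found in none, and Klf4 held no match to any of the 5 motifs. The 5 windows shared a high GC content, from 59.2% in Gfi1 to 81.6% in Cebpb, against a median of 52.4% over all promoters. A match is a description of letters and not a bound site.

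After doxycycline Klf4, Spi1, Cebpa, Cebpb and Irf8 rose in at least 1 fusion and Gfi1 and Runx1 fell in at least 1, while Cebpd and Cebpe passed in none. In NUP98-JARID1A, 4 of 9 had risen by day 3 (15.7% of all features were called, by limma with Benjamini-Hochberg adjusted p under 0.05), and by day 5 5 had risen and 1 had fallen (41.3% called). In NUP98-NSD1, 1 had fallen by day 3 (9.14% called), and by day 5 2 had risen and 2 had fallen (25.4% called). The NUP98-DDX10 libraries had 0 of 9 changed at day 3 (1.10% called) and 1, a fall, at day 5 (15.1% called). The median log2 change of the 9 members at day 5 was 0.61 in NUP98-JARID1A, 0.20 in NUP98-NSD1 and 0.11 in NUP98-DDX10, against -0.02, 0 and 0 over all features.

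Log2 fold changes are on the scale of log2(normalized count + 1), on which changes of low genes come out too small. Beside a fold change ± gives the standard error, and beside a group mean it gives the SD. A gene is said to rise, fall or change where it passed that threshold. In NUP98-DDX10 at day 3 limma, edgeR and DESeq2 each called 0 of 9, and 0 of 9 had an unadjusted p under 0.05. When only the groups compared were fitted, all 4 NUP98-JARID1A calls of day 3 missed the threshold: Cebpa had an adjusted p of 0.0548, Cebpb 0.0501, Irf8 0.108 and Klf4 0.0673.

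**Figure D1:**
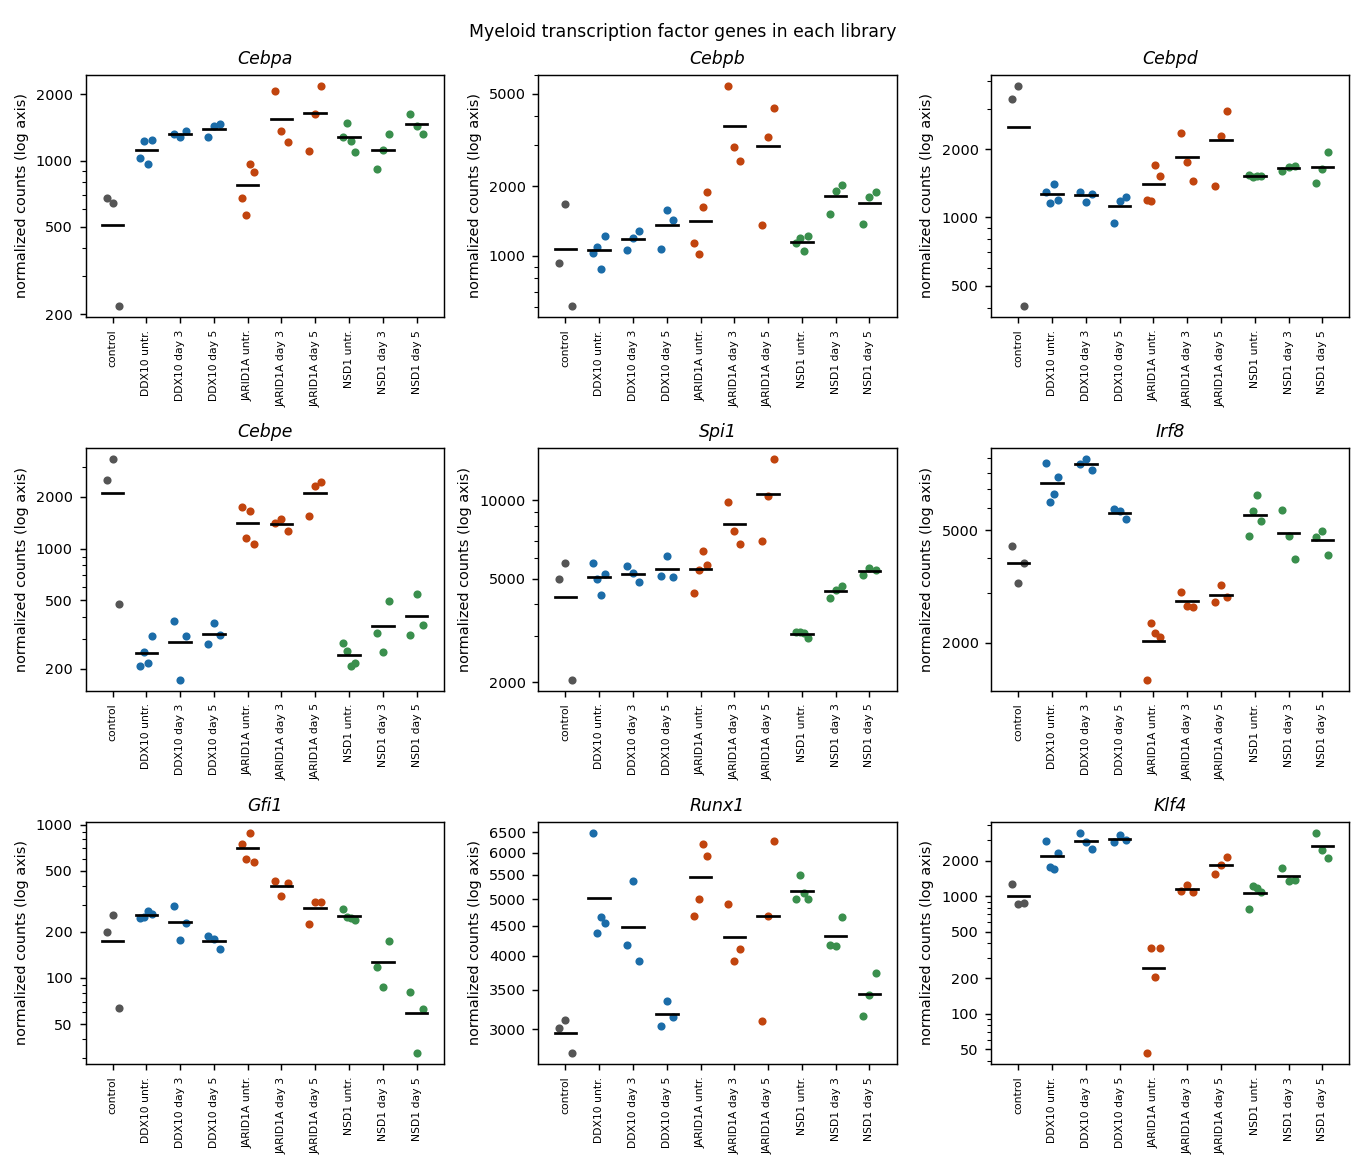
Normalized counts of each of the 9 genes (vertical log axis) in the 33 libraries, grouped by fusion and treatment along the horizontal axis; points are libraries and black bars are group means. Klf4 is lowest in the untreated NUP98-JARID1A libraries (46.5 to 364), Cebpe is low in all NUP98-DDX10 and NUP98-NSD1 groups, and 1 control library lies below the other 2 for Cebpa, Cebpb, Cebpd, Cebpe, Spi1 and Gfi1.

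Cebpa (Entrez gene 12606, chr7:35119293-35121928 in GRCm38.p6) encodes C/EBP alpha, the basic leucine zipper factor needed for granulocyte and monocyte commitment. It rose in NUP98-JARID1A. The 4 untreated libraries had 672, 566, 966 and 887 normalized counts, the day 3 libraries 2066, 1359.6 and 1212, and the day 5 libraries 1109, 1624 and 2191. Every doxycycline library thus lay above every untreated one. The change was 0.99 ± 0.27 at day 3 (limma adjusted p = 0.0115) and 1.06 ± 0.27 at day 5 (0.00227). Without day 3 replicate 1, the highest, the day 3 change was 0.76 and no longer passed (0.108). In the other fusions no change of Cebpa from untreated passed by limma with all libraries. In NUP98-DDX10, too, every doxycycline library (1278 to 1355 at day 3, 1283 to 1466 at day 5) lay above every untreated one (967 to 1241). NUP98-DDX10 went from 1115 ± 137 (SD, n = 4) to 1318 ± 38.8 (n = 3) and 1397 ± 99.5 (n = 3), a day 5 change of 0.33 with a 95% interval from -0.22 to 0.88. NUP98-NSD1 had 1274 ± 162, 1119.8 ± 203 and 1462 ± 159.6 (day 5 change 0.20, interval -0.35 to 0.75). For Cebpa the F-test comparing the effects of doxycycline among the 3 fusions gave an adjusted p of 0.118 at day 3 and 0.161 at day 5. Untreated, NUP98-JARID1A had the lowest fusion level, 773 ± 186, and its 4 libraries lay below all untreated libraries of the other 2 fusions. Its highest library (966.3) and the lowest of untreated NUP98-DDX10 (966.8) were nearly tied. The untreated fusions differed in Cebpa (F-test of the untreated fusions, adjusted p = 0.0255). That call was lost without NUP98-JARID1A untreated replicate 1 (0.0727) or 2 (0.119) and without NUP98-NSD1 untreated replicate 2 (0.055).

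Cebpb (Entrez gene 12608, chr2:167688915-167690432), which encodes the C/EBP of emergency granulopoiesis and macrophage activation, also rose in NUP98-JARID1A. Its libraries went from 1132, 1022, 1625 and 1893 untreated to 5421, 2959.5 and 2554 at day 3 and to 1353, 3255 and 4356 at day 5. All day 3 libraries lay above the untreated ones, while day 5 replicate 1, the deepest library, overlapped them. The changes were 1.33 ± 0.31 (adjusted p = 0.0036) and 0.96 ± 0.31 (0.014). The day 3 change did not pass without day 3 replicate 1 (0.0546), and the day 5 change did not pass without day 5 replicate 2 (0.0729) or 3 (0.159). In NUP98-NSD1 the day 3 libraries (1517, 1914 and 2029) and day 5 libraries (1370.2, 1796 and 1893) lay above all 4 untreated libraries (1047 to 1223), but with 0.65 (adjusted p = 0.204) and 0.54 (0.221) neither change passed. NUP98-DDX10 went from 1056 ± 143 to 1179 ± 114 and 1357 ± 262, and overlapped. For Cebpb no pair of neighbours in the order of the 10 groups was separate: from 3645 ± 1551 in NUP98-JARID1A day 3 down to 1056 in untreated NUP98-DDX10, each group overlapped the next.

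Cebpd (Entrez gene 12609, chr16:15887286-15889545) encodes C/EBP delta, an acute phase and granulocyte factor. By limma with all libraries it was not called in any of the 18 comparisons. Against the controls edgeR called it lower in NUP98-DDX10 untreated (0.0269) and at day 5 (0.0168), and DESeq2 did so there (0.0105 and 0.00466) and in untreated NUP98-JARID1A (0.0275). When only the groups compared were fitted, limma called it higher at day 3 in NUP98-NSD1 (0.12, 0.0244). In NUP98-JARID1A the group means were 1398 ± 258, 1855 ± 469 and 2204 ± 792, with a day 5 change of 0.61 (interval -0.24 to 1.45, adjusted p = 0.253). The other fusions stayed closer to their start, from 1266 to 1119 in NUP98-DDX10 and from 1521 to 1670.5 in NUP98-NSD1 at day 5. The standard error of 0.41 was set in part by the controls, whose libraries held 3312, 3816 and 406. Fitted without the control libraries, a setting added after the data were seen, Cebpd passed at day 5 in NUP98-JARID1A (adjusted p = 0.00831). The gene overlaps Spidr on the chromosome, and whether the authors counted by strand is not given in the sources used here, so its reads cannot be told apart from those of Spidr in the shared stretch.

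Cebpe (Entrez gene 110794, chr14:54710363-54712174) encodes C/EBP epsilon, which drives late granulocyte maturation and the secondary granule genes. It separated the fusions more than the treatment did. Untreated NUP98-JARID1A libraries had 1739.8, 1158, 1649.7 and 1066, against 208, 249, 216 and 311 in NUP98-DDX10 and 283, 254, 208 and 215 in NUP98-NSD1 (F-test, adjusted p = 7.03e-07). No NUP98-JARID1A library of any group overlapped any NUP98-DDX10 or NUP98-NSD1 library. After doxycycline Cebpe did not pass in any fusion. The day 5 libraries of NUP98-JARID1A had 1559.9, 2314 and 2439.7 (change 0.59, interval -0.22 to 1.40), and those of NUP98-NSD1 had 314, 543 and 359 (0.72, interval -0.09 to 1.54). All 3 NUP98-NSD1 values lay above the untreated range, and fitted without the control libraries the adjusted p there was 0.03. Those of NUP98-DDX10 had 278, 371 and 313 (0.39, interval -0.42 to 1.20).

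Spi1 (Entrez gene 20375, chr2:91082374-91115759) encodes PU.1, the ETS factor that macrophages, neutrophils and their progenitors all need. It rose by day 5 in 2 fusions. NUP98-JARID1A went from 4396, 5413, 6374 and 5636 untreated to 9899, 7647 and 6813 at day 3 and 6976, 10380.4 and 14421 at day 5. NUP98-NSD1 went from 3131, 3119, 3087 and 2955 to 4219, 4514 and 4686 and then 5146, 5485 and 5398. In both fusions every doxycycline library lay above every untreated one, and in NUP98-NSD1 every day 5 library lay above every day 3 library. The day 5 changes were 0.91 ± 0.23 (adjusted p = 0.00208) and 0.80 ± 0.23 (0.01). At day 3 they were 0.57 (0.094) and 0.54 (0.144), and both passed when the control libraries were left out of the fit (0.0122 and 0.0222). NUP98-DDX10 stayed at 5059 ± 577, 5229.7 ± 373 and 5443 ± 589, with a day 5 change of 0.11 (interval -0.36 to 0.57). The F-test on the day 5 effects gave Spi1 an adjusted p of 0.111, and 0.0248 without NUP98-JARID1A day 5 replicate 1. Untreated levels of Spi1 did differ among the fusions (0.00232), and NUP98-NSD1, at 3073 ± 80.8, had the lowest mean of the 10 groups.

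Irf8 (Entrez gene 15900, chr8:120736358-120756694) encodes the interferon regulatory factor that favours monocytes and dendritic cells over granulocytes. Its day 5 response to doxycycline differed between the fusions, and from untreated only the rise in NUP98-JARID1A passed. Untreated NUP98-DDX10 libraries had 8664, 6289, 6738 and 7746, those of NUP98-NSD1 had 4792, 5851, 6663 and 5399.8, and those of NUP98-JARID1A had 1483, 2352, 2161 and 2097 (F-test, adjusted p = 4.36e-12). The NUP98-JARID1A libraries were far below both others. In NUP98-JARID1A it rose to 3024, 2708 and 2669 at day 3 and 2788, 3205 and 2894 at day 5, above all untreated libraries, by 0.49 ± 0.14 (adjusted p = 0.021) and 0.57 ± 0.14 (0.0024). The day 3 call was lost without day 3 replicate 1 (0.103) or untreated replicate 1 (0.103). In NUP98-DDX10 it had 8614, 8932 and 8185 at day 3 and 5961, 5868 and 5466 at day 5, so that the day 5 libraries lay below all the others of that fusion. Neither the day 5 change from untreated (-0.34, adjusted p = 0.113) nor that from day 3 (-0.57, 0.0694) passed, and the second passed with DESeq2 (0.0187) and without the control libraries (0.0298). NUP98-NSD1 had 4883 ± 986 and 4604 ± 455, overlapping its untreated libraries at both days. The day 5 effects on Irf8 were unequal among the fusions (F-test, adjusted p = 0.00189), also under each of the 30 other settings and left-out libraries tried. Beside the rise in NUP98-JARID1A, its 5 dendritic cell markers, whose cells also use Irf8, went from a sum of 1945 to 3888 untreated to 658 to 1110 at day 3 and 437 to 476 at day 5, with no marker at 0. Their part in the level of Irf8 was not tested.

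Klf4 (Entrez gene 16600, chr4:55527137-55532475) encodes a zinc finger factor of monocyte differentiation, and it had the largest rise of the 9. NUP98-JARID1A went from 46.5, 361, 206 and 364 untreated to 1099, 1239 and 1093 at day 3 and 1553, 1856 and 2142 at day 5. Each day lay wholly above the one before. The changes were 2.59 ± 0.40 (adjusted p = 3.47e-05) and 3.27 ± 0.40 (1.88e-07). Untreated replicate 1, the library titled for day 3, was the lowest with 46 reads. NUP98-NSD1 went from 783, 1219, 1164 and 1077 to 1746, 1339 and 1370.0 and then 3468, 2471 and 2109, also without overlap from step to step. There the day 3 change of 0.49 did not pass (0.505) and the day 5 change of 1.33 did (0.0135), although not without day 5 replicate 1 (0.0735). NUP98-DDX10 started higher, at 2919, 1765, 1697 and 2326, and had 3445, 2908 and 2527 at day 3 and 2892, 3328 and 3028 at day 5, which overlap. Its day 5 change was 0.53 (interval -0.28 to 1.35). Its effects were unequal among the fusions at day 3 (F-test, adjusted p = 0.0187) and at day 5 (0.00178). The day 3 difference was lost without NUP98-JARID1A day 3 replicate 2 (0.0565). By day 5 the group means were 3083, 2683 and 1850.2 in NUP98-DDX10, NUP98-NSD1 and NUP98-JARID1A, a narrower range than the 2177, 1061 and 244 before treatment.

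Gfi1 (Entrez gene 14581, chr5:107716655-107725805) encodes a zinc finger repressor that supports granulocytes and restrains monocyte genes. It fell in 2 fusions. NUP98-NSD1 went from 282, 249.7, 245 and 239 to 118, 87.9 and 174 at day 3 and 80.7, 32.4 and 63.0 at day 5, a span of 34 to 75 reads at the end. NUP98-JARID1A went from 752, 597, 886 and 574 to 428, 341 and 416 and then 226, 313 and 314. In both, the 3 stages did not overlap. The NUP98-NSD1 changes were -1.05 ± 0.32 (adjusted p = 0.0346) and -2.19 ± 0.32 (6.18e-06), and the fall from day 3 to day 5 also passed (-1.13, 0.0291). The day 3 call was fragile: it was lost without any 1 of 6 of the 7 libraries compared (0.0602 to 0.197). The day 5 against day 3 call was lost without day 3 replicate 1 (0.0744) or 3 (0.165) or day 5 replicate 2 (0.255). In NUP98-JARID1A the changes were -0.81 (0.0833) and -1.29 ± 0.32 (0.00167). The day 3 fall did pass with edgeR (0.0466), with DESeq2 (0.0255), in the fit of the groups compared (0.0352) and without the control libraries (0.0146). NUP98-DDX10 had 256 ± 12.0, 233 ± 58.0 and 173 ± 17.4, and its day 5 libraries (153 to 187) lay below all 4 untreated ones (245 to 272). Its day 5 change of -0.57 did not pass (0.238). The day 5 effects on Gfi1 were unequal among the fusions (F-test, adjusted p = 0.0245), but not without NUP98-NSD1 day 5 replicate 2 (0.0937) or NUP98-DDX10 day 5 replicate 1 (0.0549).

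Runx1 (Entrez gene 12394, chr16:92601466-92826074) encodes the DNA-binding subunit of core binding factor, itself often mutated in leukemia. It was the most even of the 9, with a highest group mean 1.85 times the lowest. It fell in NUP98-DDX10, from 6490.3, 4385, 4663 and 4558 to 3040.0, 3349.6 and 3151 at day 5 (-0.64 ± 0.16, adjusted p = 0.00708), and its day 3 libraries (4178, 5363 and 3915) overlapped the untreated ones. It fell in NUP98-NSD1 from 5001, 5487, 5129.6 and 4996 to 3160.3, 3435 and 3746 (-0.58 ± 0.16, 0.00802). In these fusions the day 5 and untreated libraries did not overlap. In NUP98-JARID1A the day 5 libraries spread over 3096, 4678 and 6274, across the untreated range of 4671 to 6218, and the change of -0.27 did not pass (0.191). Without day 5 replicate 3, the highest, it was -0.51 and passed (0.0132). The F-test among the fusions gave Runx1 an adjusted p of 0.874 at day 3 and 0.372 at day 5. Without NUP98-JARID1A day 5 replicate 1 the day 5 difference passed (0.0226).

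**Figure D2:**
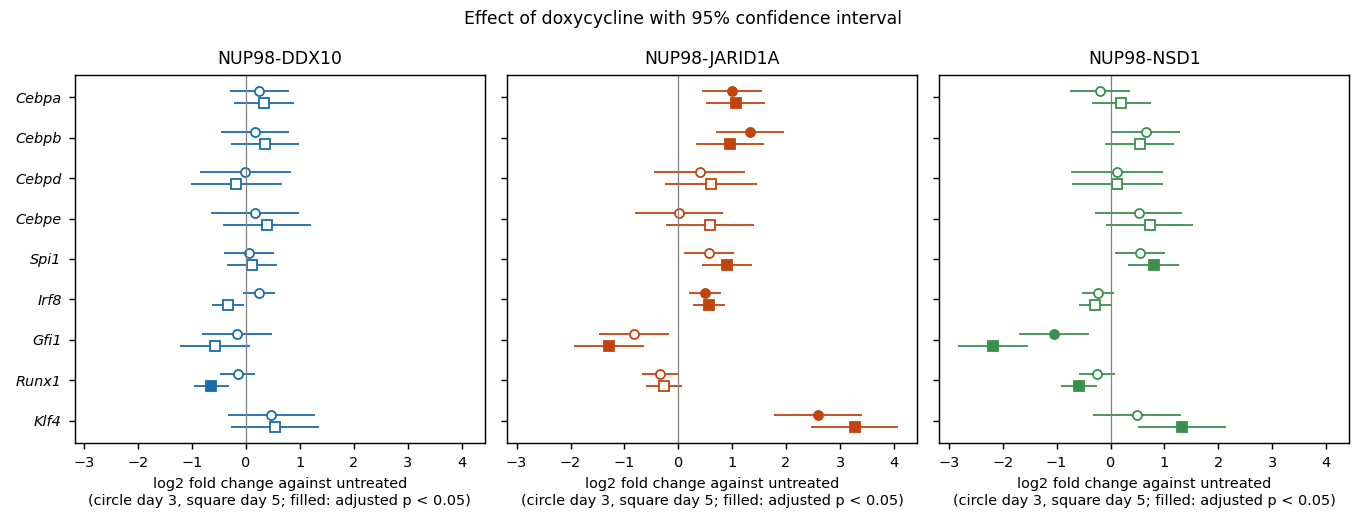
Log2 fold change of each gene against the untreated libraries of its fusion (horizontal axis), with its 95% confidence interval; circles are day 3, squares day 5, and filled symbols have an adjusted p under 0.05. Klf4 in NUP98-JARID1A lies farthest to the right (2.59 and 3.27) and Gfi1 in NUP98-NSD1 farthest to the left (-1.05 and -2.19).

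From day 3 to day 5 itself few of the 9 changed. Gfi1 in NUP98-NSD1 was the single call (10.6% of all features called), and there were 0 of 9 in NUP98-JARID1A (19.9%) and 0 of 9 in NUP98-DDX10 (0.930%). At an unadjusted p under 0.05 there were 0 in NUP98-JARID1A and 2, Irf8 and Runx1, in NUP98-DDX10. In NUP98-JARID1A edgeR and DESeq2 also called 0, and in NUP98-DDX10 edgeR called 0 and DESeq2 called 1. The F-tests of the difference in effect called 1 of 9 at day 3, Klf4 (7.08% of all features), and 3 of 9 at day 5, Irf8, Gfi1 and Klf4 (26.0%). Klf4 at day 3 had 0.0672 under the replicate block. Without NUP98-JARID1A day 5 replicate 1, those 3 kept passing at day 5, and Cebpa (0.05, just under the threshold), Spi1 (0.0248) and Runx1 (0.0226) passed too.

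Untreated, 6 of the 9 differed between the fusions: Cebpa, Cebpe, Spi1, Irf8, Gfi1 and Klf4 (69.8% of all features did). Of the untreated fusions NUP98-JARID1A had the highest means of Cebpe and Gfi1 and the lowest of Irf8, Klf4 and Cebpa. Over the 10 groups the ratio of the highest to the lowest mean was 12.6 for Klf4 and 12.0 for Gfi1, then 8.76 for Cebpe and 4.24 for Irf8. The others ranged from 1.85 for Runx1 to 3.45 for Cebpb and Spi1. In the order of groups, neighbours were separate at 3 of 9 steps for Irf8 and for Gfi1, at 2 for Klf4, at 0 for Cebpb and at 1 for each of the others. The step of Cebpa, below untreated NUP98-DDX10, was the near tie of 966.8 and 966.3. For Irf8 the steps lay below untreated NUP98-DDX10, below the controls, and above untreated NUP98-JARID1A. For Gfi1 they lay below untreated and below day 3 NUP98-JARID1A and above day 5 NUP98-NSD1. The steps of Klf4 lay below day 3 NUP98-NSD1 and above untreated NUP98-JARID1A.

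Against the control libraries, the untreated fusions had 6 of 9 members changed in NUP98-DDX10 (68.5% of all features called), 5 in NUP98-JARID1A (69.4%) and 5 (64.6%) in NUP98-NSD1. In the same order the day 5 groups had 4 (64.8%), 6 (67.3%) and 5 (58.9%), all shares below the background. The 6 comparisons share the same 3 control libraries. Cebpa was higher in all 3 untreated fusions, by 1.28 in NUP98-DDX10 (adjusted p = 0.00014), 0.73 in NUP98-JARID1A (0.0181) and 1.47 (2.78e-05) in NUP98-NSD1. Control libraries had 677, 639 and 218, so NUP98-JARID1A overlapped them, and its call was lost without control replicate 3 (0.20, 0.415). The other differences shrank without that library but still passed, to 0.75 (0.00336) in NUP98-DDX10 and 0.94 (0.000447) in NUP98-NSD1. At day 5 Cebpa was above the controls by 1.61, 1.79 and 1.68 in NUP98-DDX10, NUP98-JARID1A and NUP98-NSD1, and by 1.08, 1.26 and 1.15 without it (0.000176, 2.77e-05 and 0.000111). Runx1 was higher in all 3 as well, by 0.75, 0.88 and 0.80 (0.000184, 2.59e-05 and 9e-05). Its control libraries (3019.5, 3109 and 2733) lay below every untreated fusion library, and without control replicate 3 the differences were 0.69, 0.82 and 0.75 (0.00135, 0.000241 and 0.000717). At day 5 Runx1 was no longer past the test in NUP98-DDX10 (0.11, 0.598) or NUP98-NSD1 (0.22, 0.273), and it was in NUP98-JARID1A (0.61, 0.00297, and 0.55, 0.0124 without control replicate 3). That last call was lost without day 5 replicate 3 (0.0565), under the replicate block (0.0723) and when only the groups compared were fitted (0.119).

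Irf8 was above the controls (4408, 3248 and 3824) in NUP98-DDX10 by 0.94 (adjusted p = 2.05e-06) and in NUP98-NSD1 by 0.57 (0.00119), and below them in NUP98-JARID1A (-0.93, 2.48e-06). Without control replicate 3 these were 0.95 (1.13e-05), 0.57 (0.00315) and -0.92 (1.61e-05). At day 5 Irf8 was still above the controls in NUP98-DDX10 (0.60, 0.00135, and 0.61, 0.0031 without that library). It was below them in NUP98-JARID1A (-0.36, 0.0417), a call lost without that library (0.0688), without day 5 replicate 1 (0.106) and under the replicate block (0.0646). Klf4 was higher in NUP98-DDX10 (1.10, 0.0154), lower in NUP98-JARID1A (-2.38, 6.28e-06) and close to the controls in NUP98-NSD1 (0.08, interval -0.73 to 0.89). Its control libraries had 1269.9, 865 and 879. Without control replicate 3 the first was 1.02 (0.0473) and the second -2.47 (2.59e-05). The NUP98-DDX10 call was lost without control replicate 2 (0.0544) or untreated replicate 1 (0.0507). By day 5 Klf4 was above the controls in NUP98-DDX10 (1.64, 0.00138) and NUP98-NSD1 (1.41, 0.0057), and in NUP98-JARID1A it had 0.89 (0.0641). Without control replicate 3 these were 1.55 (0.00569), 1.32 (0.0186) and 0.81 (0.134).

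Cebpe was lower than in the controls in NUP98-DDX10 (-2.70, adjusted p = 9.93e-07) and NUP98-NSD1 (-2.73, 9.73e-07), and still so at day 5 (-2.31 with 2.92e-05 and a 4.00-fold lower level with 0.000213). The control libraries held 2512, 3322 and 474, all but the last far above these fusions. Without the last, replicate 3, the untreated differences were -3.57 (1.4e-11) and -3.59 (1.22e-11), and those of day 5 were -3.18 (4.85e-10) and -2.87 (4.03e-09). Untreated NUP98-JARID1A had -0.21 (0.655), which became -1.07 (0.00132) without control replicate 3. Cebpd (controls 3312, 3816 and 406) changed most with that library. Without it Cebpd was lower than the controls in untreated NUP98-DDX10 (-1.49, 2.72e-07), NUP98-JARID1A (-1.36, 1.14e-06) and NUP98-NSD1 (-1.22, 6.44e-06), while with it none passed by limma, 1 (NUP98-DDX10) by edgeR and 2 (NUP98-DDX10 and NUP98-JARID1A) by DESeq2. At day 5 it was lower without that library in NUP98-DDX10 (-1.68, 1.18e-07) and NUP98-NSD1 (-1.10, 6.78e-05), and in NUP98-JARID1A its sign turned, from 0.28 (0.585) to -0.76 (0.00266).

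Gfi1 was higher than in the controls (201, 256 and 63.6) in untreated NUP98-JARID1A by 2.21 (adjusted p = 6.63e-07), and by 1.60 (5.37e-06) without control replicate 3. The smaller differences of untreated NUP98-DDX10 (0.78, 0.0307) and NUP98-NSD1 (0.77, 0.0359) fell away without control replicate 3 (0.17, 0.562, and 0.16, 0.609). At day 5 Gfi1 was lower than in the controls in NUP98-NSD1 (-1.42, 0.000753, and -2.03, 5.08e-07 without control replicate 3), and higher in NUP98-JARID1A (0.92, 0.019) only with that library kept (0.31, 0.322 without it). Spi1 (controls 4971, 5725 and 2048) did not pass in any untreated fusion. At day 5 it was above the controls in NUP98-JARID1A (1.39, 1.59e-05, and 0.93, 0.000102 without control replicate 3). Without control replicate 3, Spi1 was lower in untreated NUP98-NSD1 (-0.80, 0.000318). Cebpb (controls 929, 1682 and 609) passed in no untreated fusion, and at day 5 in NUP98-JARID1A (1.44, 0.000408, and 0.00631 without control replicate 3) and barely in NUP98-NSD1 (0.76, 0.0496, and 0.42, 0.3 without control replicate 3). The part of B cell and erythroid RNA of control replicate 3 in these results was not tested.

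**Figure D3:**
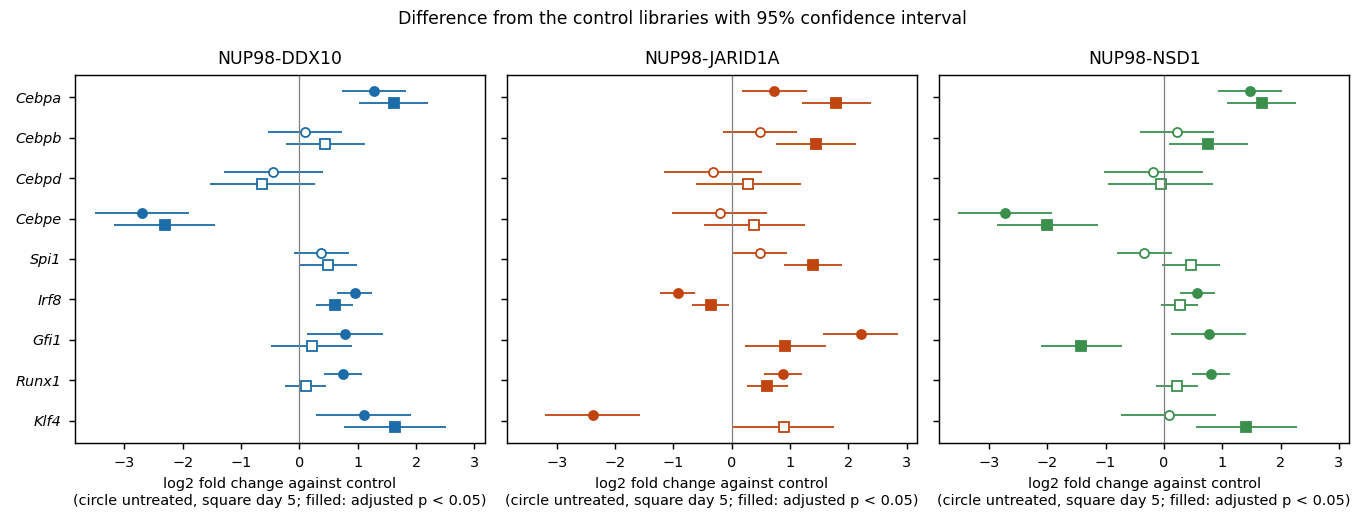
Log2 fold change of each gene against the 3 control libraries (horizontal axis), with its 95% confidence interval; circles are untreated, squares day 5, and filled symbols have an adjusted p under 0.05. Cebpe lies near -2.70 in NUP98-DDX10 and NUP98-NSD1 and near 0 in NUP98-JARID1A, and Klf4 moves from -2.38 to 0.89 in NUP98-JARID1A.

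The wider pathway was read from 7 lists of related genes at the same threshold, and values are given in the order in which the fusions are named. Each count at day 5 stands against 41.3% of all features called in NUP98-JARID1A, 25.4% in NUP98-NSD1 and 15.1% in NUP98-DDX10. Of 8 secondary granule genes, which C/EBP epsilon is known to drive, 6 rose by day 5 in NUP98-JARID1A, 6 rose in NUP98-NSD1 and 0 changed in NUP98-DDX10. Ltf, the lactoferrin gene, rose by 2.76 ± 0.57 (limma adjusted p = 0.000287) and 3.00 ± 0.57 (0.000224), against -0.02 in NUP98-DDX10. Ngp, a neutrophil granule gene, rose by 2.56 (0.000194) and 1.76 (0.0107). The list's medians were 1.71, 1.76 and -0.03, beside -0.02, 0 and 0 over all features. In NUP98-DDX10 0 of the 8 had an unadjusted p under 0.05, and edgeR and DESeq2 each called 0. The summed myeloid markers, which include Itgam, Csf3r, Mpo and Elane, were higher at day 5 than untreated in each fusion, without overlap: 170044 to 206746 became 345332 to 368936 in NUP98-JARID1A, 156917 to 189888 became 267418 to 311513 in NUP98-NSD1, and 131367 to 164646 became 176628 to 184931 in NUP98-DDX10. In NUP98-DDX10 the sums at day 3, 192743 to 214616, lay above those of day 5. A sum can hide markers that went the other way: by day 5 Mpo and Elane fell in NUP98-NSD1, and Mpo fell in NUP98-JARID1A (next paragraph). Whether the makeup of the sorted cells shifted was not tested.

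Primary granule genes, made by promyelocytes, went the other way. Of 4, all 4 fell in NUP98-NSD1 by day 5, 3 fell in NUP98-JARID1A and 0 passed in NUP98-DDX10, where 3 had an unadjusted p under 0.05, edgeR called 0 and DESeq2 called 2. Elane, the neutrophil elastase gene, fell by 3.27 in NUP98-NSD1 (adjusted p = 3.11e-07) and had -0.89 in NUP98-JARID1A (0.0671). Mpo, the myeloperoxidase gene, fell in both (-3.02 with 4.42e-06 and -1.36 with 0.0119) and had -1.11 in NUP98-DDX10 (0.0785). Of 8 receptor genes known as C/EBP or PU.1 targets, 5 rose by day 5 in NUP98-JARID1A, 5 rose in NUP98-NSD1 and 1 rose in NUP98-DDX10, the last near its share of all features. Fcgr1, the high affinity Fc gamma receptor gene, rose in all 3, by 3.13 (1.07e-07), 3.22 (1.6e-07) and 1.14 (0.0346). Csf1r, the macrophage colony-stimulating factor receptor gene, rose by 1.34 (6.01e-07) and 0.77 (0.00148) and had -0.26 (0.349) in NUP98-DDX10.

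Among 17 other myeloid and progenitor factors, 9 rose and 4 fell in NUP98-JARID1A by day 5, 9 rose and 2 fell in NUP98-NSD1, and 1 rose and 1 fell in NUP98-DDX10, the last below its share of all features. Myb, a progenitor factor gene, fell in each (-2.10 with an adjusted p of 9.72e-06, -2.57 with 9.68e-07 and -1.05 with 0.0297). Id2 rose in each too (1.15, 1.44 and 1.91). Of 10 partners and paralogs of the members, 6 rose and 2 fell in NUP98-JARID1A, 3 rose and 2 fell in NUP98-NSD1, and 1 rose and 2 fell in NUP98-DDX10. Klf6, a paralog of Klf4, rose by 1.42, 1.10 and 0.89 (7.16e-08, 7.53e-06 and 0.000403). Gfi1b, the paralog of Gfi1, rose in NUP98-JARID1A (2.16, 0.00287), fell in NUP98-DDX10 (-2.33, 0.0053) and had -0.10 in NUP98-NSD1 (0.938).

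Of 5 relatives and regulators of the C/EBP factors, 2 rose in NUP98-JARID1A, Trib1 and Trib3, 1 in NUP98-NSD1, Trib1, and 1 in NUP98-DDX10, Trib3, all near those shares. In NUP98-DDX10 edgeR and DESeq2 each called 0 of the 5. Trib1, whose product promotes C/EBP alpha breakdown, rose by 2.12 (adjusted p = 0.000238) and 1.84 (0.00188). Of 5 genes known as repressed by GFI1, 3 rose in NUP98-JARID1A, 3 rose and 1 fell in NUP98-NSD1, and 3 rose in NUP98-DDX10, where Gfi1 itself did not pass. Id2 and Egr2 of this list are also in the list of 17 factors. Cdkn1a, the gene of the p21 cell cycle inhibitor, rose in all 3 (1.07, 0.57 and 0.99), and the 1 gene that fell was Csf1 in NUP98-NSD1 (-0.95, 0.0208).

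By likeness over the 10 group means of log2 values, each member's closest gene was Vps33a for Cebpa (Pearson r = 0.961), Hras for Cebpb (0.943), Fam20b for Cebpd (0.944), Cxcr2 for Cebpe (0.989), Ucp2 for Spi1 (0.983), Gng12 for Irf8 (0.961), Scnn1a for Gfi1 (0.980), Hk3 for Runx1 (0.935) and Nrp1 for Klf4 (0.958). Next came Tex261 and Eif4e3, Tbkbp1 and Arl8a, Atp11a and Ptms, Ptpn12 and Fam102a, Phc2 and Zyx, Haao and Hadh, Olr1 and Lbp, Anks1 and Scly, and Nptn and Nfxl1, in the same order of members. The r is a description over 10 means that share libraries and control samples. Among the members themselves the most opposed pair was Cebpe and Irf8 (r = -0.864), followed by Gfi1 and Klf4 (-0.643). The most alike were Cebpb and Spi1 (0.789) and Irf8 and Klf4 (0.744).

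**Figure D4:**
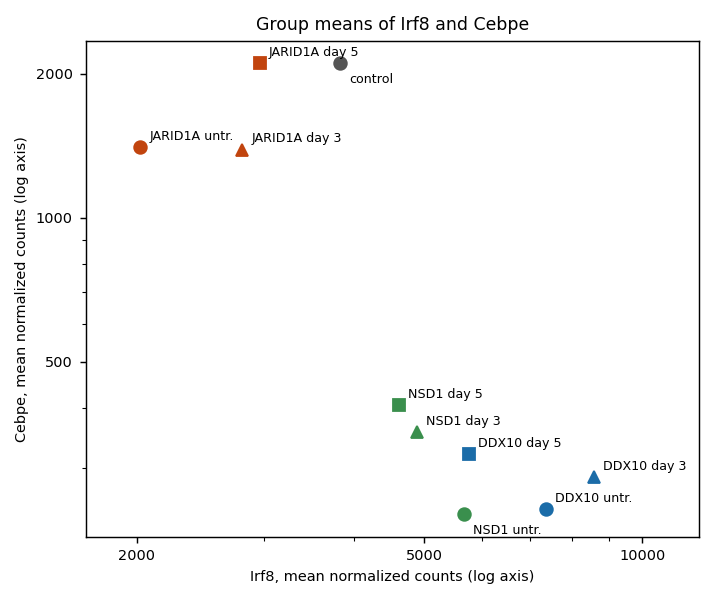
Group means of Irf8 (horizontal log axis) and Cebpe (vertical log axis) in normalized counts for the 10 groups; colour is the fusion, circles are untreated or control, triangles day 3 and squares day 5. The NUP98-JARID1A groups and the controls lie high in Cebpe (1389 to 2104) and at or below 3827 in Irf8, and the NUP98-DDX10 and NUP98-NSD1 groups lie at or below 406 in Cebpe and from 4604 to 8577 in Irf8.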

How the data were processed

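Gene expression was measured by stranded poly-A RNA-seq in 33 libraries of 10 groups. Per the submitters' processing notes the authors used STAR, SAMtools, featureCounts and DESeq2 with GRCm38 and mm10, without versions; use of strand in counting is not given in the sources used here. The deposited values are a signal, counts divided by 1 size factor per library, and 100% of them were whole multiples of 1 step within 0.01 reads, so read counts were recovered. The 2 chromatin samples were not analysed here. The 12687 features that reached 10 in 3 or more libraries were fitted with limma 3.58.1 in R 4.3.3, with a mean-variance trend on log2(value + 1), as 10 group means over all libraries (27.3 degrees of freedom). Tests were 2-sided, and Benjamini-Hochberg adjusted p-values run over all features.

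Whether the replicate numbers in the titles pair libraries is not known. Between untreated and day 5 NUP98-JARID1A, the 4 same-numbered pairs (2 share a day 5 library) had correlations of deviations of 0.141 to 0.425. The differently numbered pairs there ran from -0.429, for untreated replicate 1 and day 5 replicate 3, to 0.352. Most were below 0, and the highest was untreated replicate 3 with day 5 replicate 3. Over all stages of that fusion the median was -0.010 for same-numbered pairs and 0.023 for the others, so no pairing is established. For day 5 against untreated there, a replicate block changed no call of a member. In the other comparisons within a fusion, not every same-numbered pair was over 0.1, so no pairing is shown there either. No 2 libraries held the same reads: chi-square per degree of freedom within groups was 6.91 to 385. Alternatives were a pseudocount of 5, no filter, quantile and TMM scaling, edgeR 4.0.16 and DESeq2 1.42.0 on recovered reads, a replicate block, a fit on the compared groups only, leaving out each library, and, added after seeing the data, leaving out the controls. The fit was tested on simulated data. All 9 members were named in every comparison, with the 3 genes most like each (mean above the median of 387 normalized counts) and, from each of 7 related gene lists, up to 3 with the smallest adjusted p in a comparison; Csf1 was added as the only fall of its list. An item of 1 list is not reported here. The members and lists were chosen with earlier results of these data known.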

Additional observations from a re-analysis of the deposited data

Results flagged for a closer look

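Runx1 in NUP98-DDX10 untreated replicate 1, the library titled for day 3, had 6490 normalized counts, far from the other 3 libraries of its group (4385 to 4663). The gap to its nearest neighbour was 0.868 of the range of the 4 libraries, above Dixon's 95% critical value. Of 27 gene and group combinations examined, chance would mark about 1 in 20.

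The effect of doxycycline differed between the fusions for 3 members by limma's F-test. Klf4 differed at day 3 (adjusted p = 0.0187), with 2.59 in NUP98-JARID1A and 0.47 and 0.49 in NUP98-DDX10 and NUP98-NSD1. It differed again at day 5 (adjusted p = 0.00178), with 3.27, 0.53 and 1.33 in the same order. Irf8 differed at day 5 (adjusted p = 0.00189), with 0.57, -0.34 and -0.30 in that order. Gfi1 differed at day 5 (adjusted p = 0.0245), with -2.19 in NUP98-NSD1, -1.29 in NUP98-JARID1A and -0.57 in NUP98-DDX10.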

How the results depend on the processing

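Pseudocount 5 changed no call of a member. The sign of a member's change turned past the test under 1 setting, Cebpd in NUP98-JARID1A day 5 against control without control replicate 3 (-0.76, in a range up to 0.86 over the left-out libraries). Counts of members called moved as follows. With the fit on the groups compared only, NUP98-JARID1A day 3 had 1, NUP98-NSD1 day 3 had 5, NUP98-DDX10 day 5 had 2, day 5 against day 3 had 1 in NUP98-DDX10 and 1 in NUP98-JARID1A, day 5 against control had 3 in NUP98-JARID1A and 2 in NUP98-NSD1, and the F-tests of the effect had 3 at day 3 and 5 at day 5. With quantile normalization NUP98-NSD1 day 3 had 0 and NUP98-DDX10 day 5 against day 3 had 1; with DESeq2 the latter had 1 and the day 3 F-test 3. The replicate block, in which the title number is a term, gave 0 for NUP98-NSD1 day 3, 3 for NUP98-JARID1A day 5 against control and 0 for the day 3 F-test. Without the control libraries NUP98-NSD1 day 3 had 2, NUP98-DDX10 day 5 against day 3 had 1, and the F-tests had 3 and 6. Leaving out each library in turn gave 1 to 4 for NUP98-JARID1A day 3, 0 to 1 for NUP98-NSD1 day 3, 0 to 1 for NUP98-NSD1 day 5 against day 3, 3 to 6 for NUP98-JARID1A day 5 against control, and 0 to 2 and 2 to 6 for the F-tests. Quantile normalization moved the median of all features by 0.21 to 0.29 (log2) in the comparisons with the controls. The fewest reads behind a member in any library were 34, for Gfi1.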
